A study of Mus musculus with 2 samples.

Results

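Secreted inhibitors of Wnt signalling were described in single cells of the mouse mammary gland. The 8 genes are Sfrp1, Sfrp2, Sfrp4, Frzb, Wif1, Dkk2, Dkk3 and Sostdc1, chosen by name and each found as 1 of 31053 rows of the feature lists. The cells came from C57BL/6 mice and carried the sort label CD24highCD29+, a gate used to enrich basal (myoepithelial) cells. One library had the genotype label Fgd5-ko, with the word cko in its title, and one had the genotype label WT. The sources used here do not give the age, the number or pooling of animals, or the driver and extent of the Fgd5 deletion. Transcripts were counted from their 3' ends as UMIs (unique molecules), so levels are given as UMIs per 1000000 UMIs of a cell class (CPM) and do not scale with transcript length. With 1 library per group there is no replicate, no test was possible, and every 95% interval below covers counting error only.

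Wnt ligands bind Frizzled receptors and the coreceptors LRP5 and LRP6, which stabilises beta-catenin and switches on target genes such as Axin2. The secreted frizzled-related proteins (Sfrp1, Sfrp2, Sfrp4 and Frzb) and Wif1 bind the ligand itself, Dkk2 and Sostdc1 bind the coreceptors, and Sostdc1 also binds BMPs. Dkk3 is a divergent member of the Dickkopf family. In the mammary gland Wnt signals sustain basal stem cells, and Lgr5, a Wnt target and R-spondin receptor, is high in part of the basal layer.

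The library labelled Fgd5-ko held 8798 barcodes and 136697801 UMIs, and the WT-labelled library held 10735 barcodes and 60566053 UMIs. The authors' table listed 6064 cells of the Fgd5-ko-labelled library and 6588 of the WT-labelled library, with medians of 15712 and 4954 UMIs. The libraries shared 34 barcodes, 18 of them among the listed cells. Clustering without the 8 genes gave 5986 basal-like listed cells in the Fgd5-ko-labelled library and 6236 in the WT-labelled library, in which the 10 basal markers summed to 17335 and 25570 CPM. Fgd5 itself went against the label: in basal-like cells it had 416 UMIs (4.05 CPM, 3.67 to 4.46) in the Fgd5-ko-labelled library, against 21 UMIs (0.606 CPM, 0.375 to 0.926) in the WT-labelled library. In endothelial-like cells, where its level was higher, it had 116.5 CPM (105.7 to 128.2) in the Fgd5-ko-labelled library and 100.4 CPM (92.4 to 108.9) in the WT-labelled library, and in fibroblast-like cells 2.20 CPM (13 UMIs) and 3.75 CPM (22 UMIs). Because 3' tags need not lie in the deleted part, these counts do not check the deletion, and the libraries are named by their labels throughout.

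The 8 genes divided between cell classes. Wif1 and Dkk3 had their highest class levels in basal-like cells, and Sostdc1 was high in them and higher still in Schwann-like cells. Sfrp2, Sfrp4 and Dkk2 were stromal, with their highest class levels in fibroblast-like cells. Sfrp1 was in basal-like, fibroblast-like and Schwann-like cells, and Frzb was nearly undetected, with 7 UMIs in all named classes together.

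In basal-like cells Sostdc1 had 141 CPM (139 to 144) in the Fgd5-ko-labelled library and 105 CPM (102 to 109) in the WT-labelled library. Wif1 had 134 CPM (132 to 136) in the Fgd5-ko-labelled library, against 77.0 CPM (74.1 to 80.0) in the WT-labelled library. Dkk3 had 55.1 CPM (53.7 to 56.6) in the Fgd5-ko-labelled library and 43.1 CPM (41.0 to 45.4) in the WT-labelled library. Sfrp1 had 23.3 CPM (22.4 to 24.3) in the Fgd5-ko-labelled library, against 59.9 CPM (57.3 to 62.5) in the WT-labelled library. Sfrp2 had 9.70 CPM (9.10 to 10.3) in the Fgd5-ko-labelled library, against 20.4 CPM (18.9 to 22.0) in the WT-labelled library. In the Fgd5-ko-labelled library the order was Sostdc1, Wif1, Dkk3, Sfrp1 and Sfrp2, whereas in the WT-labelled library Sfrp1 stood above Dkk3. Neighbours in either order had separate counting intervals.

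Sfrp4 had 10 UMIs in basal-like cells of the Fgd5-ko-labelled library and 7 in those of the WT-labelled library, at 0.0974 and 0.202 CPM. Dkk2 had 0 UMIs in the basal-like cells of both libraries, which allows up to 0.0292 CPM in the Fgd5-ko-labelled library and 0.0866 CPM in the WT-labelled library (3 UMIs), and Frzb had 3 UMIs in the Fgd5-ko-labelled library and 0 in the WT-labelled library. Fibroblast collagens and Lum gave a measure of stray fibroblast RNA: they reached 0.0952% of their fibroblast-like level in basal-like cells of the Fgd5-ko-labelled library and 0.130% in those of the WT-labelled library. At those ratios Sfrp4 would stand at 0.163 and 0.290 CPM, so the few Sfrp4 UMIs were at background. Sfrp2 would stand at 0.318 and 0.656 CPM, well below the 9.70 and 20.4 CPM measured.

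**Figure D1:**
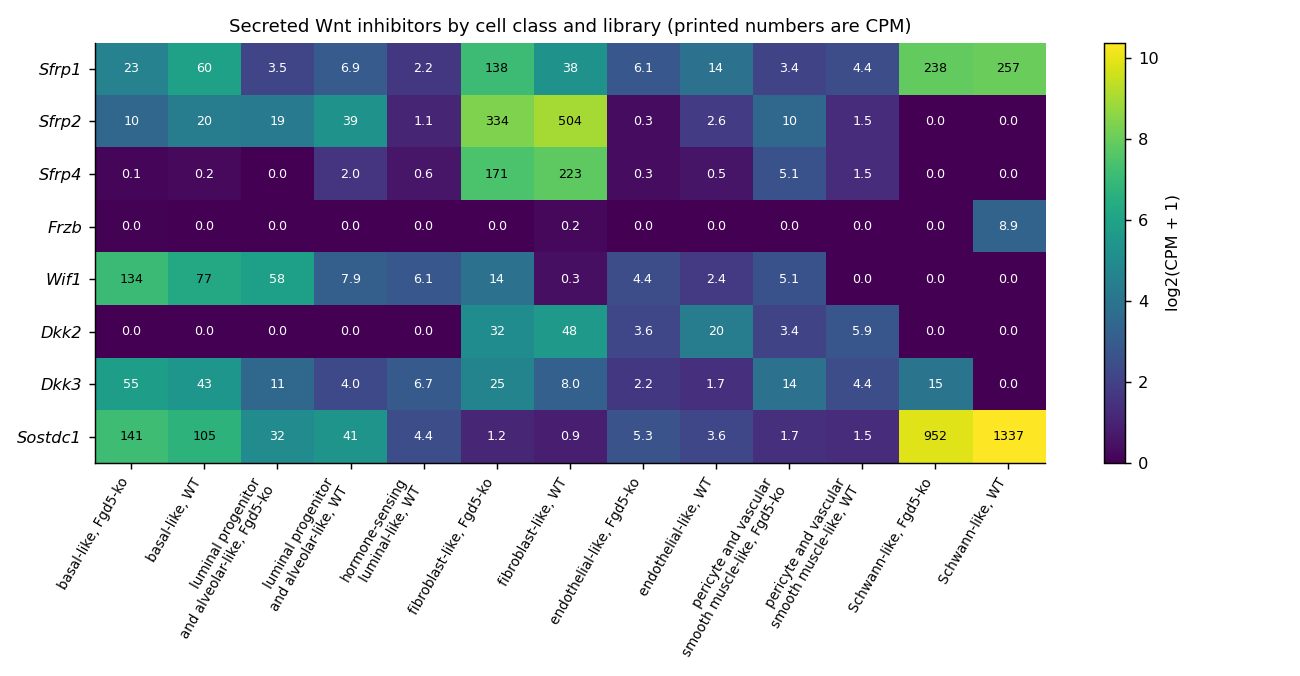
Level of the 8 genes (rows) in each cell class and library (columns, classes with at least 20 cells), coloured by log2(CPM + 1) with the CPM printed. Sostdc1, Wif1 and Dkk3 are high in basal-like cells, Sfrp2, Sfrp4 and Dkk2 in fibroblast-like cells, and Sostdc1 and Sfrp1 are high in Schwann-like cells.

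The sequences upstream of the start of 3 members are shown because they stand for the 3 patterns: Wif1 for the basal layer, Sfrp2 for fibroblasts and Dkk2 for fibroblasts and one endothelial cluster. They are the 250 bases before the annotated start, from RefSeq on GRCm38.p6, all on the plus strand: Wif1 at chr10:121033754-121034003, Sfrp2 at chr3:83766071-83766320 and Dkk2 at chr3:132085042-132085291. Capitals mark matches on either strand to TATAAA, the core of a TATA box, or to GGGCGG, a GC box.
Wif1: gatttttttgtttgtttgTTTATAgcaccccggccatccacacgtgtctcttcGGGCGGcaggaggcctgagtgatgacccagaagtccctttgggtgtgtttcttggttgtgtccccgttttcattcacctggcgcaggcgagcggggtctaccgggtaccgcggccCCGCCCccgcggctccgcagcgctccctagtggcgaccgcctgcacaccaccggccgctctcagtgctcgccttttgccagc
Sfrp2: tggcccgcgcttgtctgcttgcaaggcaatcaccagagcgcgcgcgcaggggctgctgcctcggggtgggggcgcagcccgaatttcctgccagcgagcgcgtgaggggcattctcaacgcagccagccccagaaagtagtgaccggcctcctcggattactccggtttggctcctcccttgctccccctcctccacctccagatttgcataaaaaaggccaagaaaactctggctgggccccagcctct
Dkk2: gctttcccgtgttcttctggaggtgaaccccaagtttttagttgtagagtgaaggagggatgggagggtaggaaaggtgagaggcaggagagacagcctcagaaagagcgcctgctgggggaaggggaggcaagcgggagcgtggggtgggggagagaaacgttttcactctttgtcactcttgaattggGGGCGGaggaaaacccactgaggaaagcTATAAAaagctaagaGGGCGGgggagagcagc
Wif1 and Dkk2 each held 1 TATAAA and 2 GGGCGG matches, and Sfrp2 held neither. Of 32851 windows of the same length, 12.4% held TATAAA and 32.7% held GGGCGG. None of the 3 held a match on either strand to a TCF/LEF word, which 14.8% of windows held. The words searched were CTTTGAA, its variant CTTTGAT, its further variant CTTTGTA and the last variant CTTTGTT. The window was 62.8% G and C with 21 CG pairs for Wif1, 63.6% with 16 for Sfrp2 and 55.6% with 7 for Dkk2. A match is a description of letters, not a bound site.

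Between the libraries, 5 of the 8 members had at least 20 UMIs in basal-like cells. Of these, 1 (Wif1) was at least 1.5-fold higher in the Fgd5-ko-labelled library and 2 (Sfrp1 and Sfrp2) were at least 1.5-fold lower, while Dkk3 and Sostdc1 lay within 1.5-fold. Over all 14984 genes with 20 UMIs, 27.2% were at least 1.5-fold higher, 10.1% at least 1.5-fold lower and 37.3% either, and 3 of 5 members is read against that share. The log2 ratio (Fgd5-ko over WT) was 0.80 (0.74 to 0.86) for Wif1, or 1.74-fold. It was -1.36 (-1.45 to -1.27) for Sfrp1, or 2.57-fold lower, and -1.07 (-1.21 to -0.93) for Sfrp2, or 2.10-fold lower. It was 0.35 (0.27 to 0.44) for Dkk3 and 0.42 (0.37 to 0.47) for Sostdc1, close to the median of 0.24 over all genes. Genotype and library cannot be told apart, and Fgd5 in basal-like cells was itself 6.68-fold higher in the Fgd5-ko-labelled library, log2 2.74, or 1.41 in cells of 4000 to 12000 UMIs (1.80 CPM against 0.678 CPM).

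**Figure D2:**
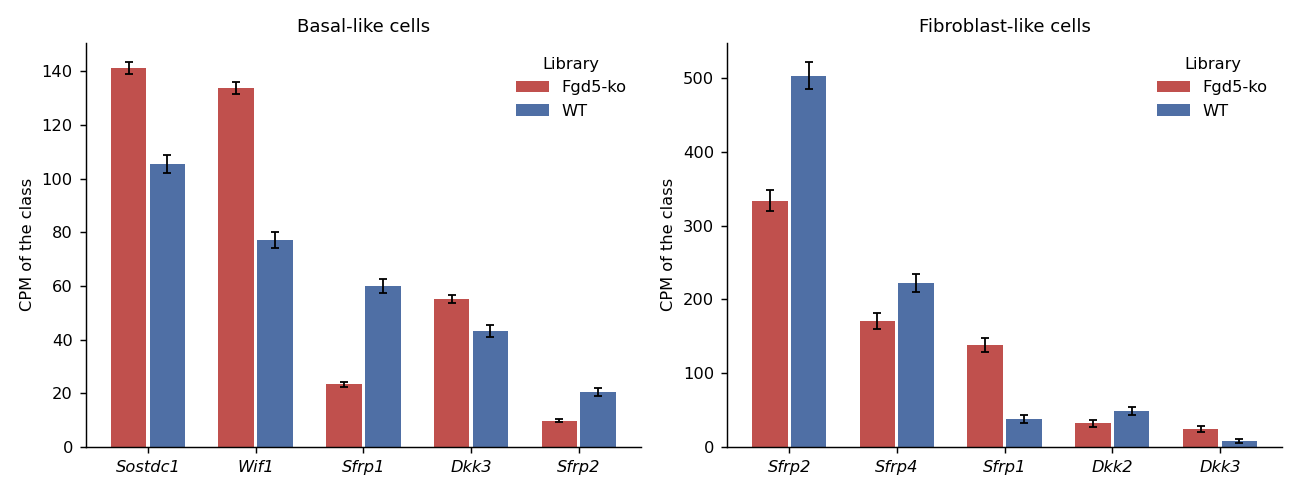
CPM of Sostdc1, Wif1, Sfrp1, Dkk3 and Sfrp2 in basal-like cells (left) and of Sfrp2, Sfrp4, Sfrp1, Dkk2 and Dkk3 in fibroblast-like cells (right) of the libraries labelled Fgd5-ko and WT; bars start at 0 and whiskers are exact 95% counting intervals. In basal-like cells Wif1 is higher and Sfrp1 and Sfrp2 are lower in the Fgd5-ko-labelled library, whereas Sfrp1 is higher there in fibroblast-like cells.

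Cells of the Fgd5-ko-labelled library were deeper, and 4 of these 5 genes moved with depth inside at least one library. Basal-like cells of each library were cut into 4 equal groups by UMIs per cell. In the Fgd5-ko-labelled library, Sfrp1 was at 58.3 CPM in the shallowest depth group of basal-like cells and at 18.7, 18.2 and 17.6 CPM in the next groups. In the WT-labelled library its levels were 121, 80.4, 49.9 and 34.1 CPM from the shallowest to the deepest group. Sostdc1 ran the other way, with 62.4, 121, 164 and 162 CPM in the Fgd5-ko-labelled library and 55.3, 80.0, 99.2 and 140 CPM in the WT-labelled library. Dkk3 followed Sfrp1, with 90.8, 54.7, 50.1 and 47.0 CPM in the Fgd5-ko-labelled library and 63.5, 54.7, 43.1 and 30.2 CPM in the WT-labelled library. Sfrp2 followed it in the WT-labelled library alone, with 39.8, 31.7, 17.8 and 9.57 CPM, against 10.9, 9.63, 9.96 and 9.18 CPM in the Fgd5-ko-labelled library. Wif1 kept one level at every depth, with 134, 128, 132 and 138 CPM in the Fgd5-ko-labelled library and 72.9, 76.6, 73.2 and 81.0 CPM in the WT-labelled library.

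**Figure D3:**
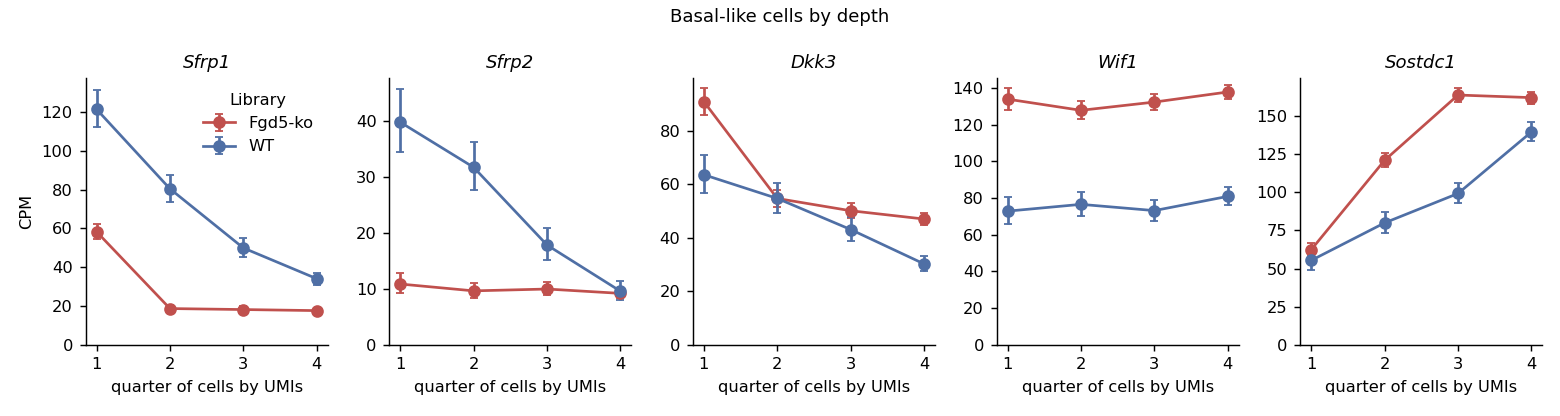
CPM of 5 members in 4 equal groups of basal-like cells ranked by UMIs per cell (1 is the shallowest) in each library, with exact 95% counting intervals. Sfrp1 and Dkk3 are lower and Sostdc1 is higher in deeper cells of both libraries, while Wif1 is flat and separates the libraries in every group.

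Cells of 4000 to 12000 UMIs gave a comparison at a more equal depth, with 1559 cells (median 9629 UMIs) in the Fgd5-ko-labelled library and 4355 cells (median 5548) in the WT-labelled library. There Wif1 kept its difference, at 132 CPM (126 to 138) in the Fgd5-ko-labelled library and 75.9 CPM (72.6 to 79.2) in the WT-labelled library, log2 0.80. Sfrp1 lost its difference, at 55.6 CPM (51.8 to 59.5) in the Fgd5-ko-labelled library and 51.3 CPM (48.6 to 54.1) in the WT-labelled library. Its log2 ratio was 0.11 (-0.01 to 0.24). Sostdc1 changed direction, with 62.8 CPM (58.8 to 67.1) in the Fgd5-ko-labelled library and 112 CPM (108 to 116) in the WT-labelled library, log2 -0.84 (-0.94 to -0.73). Dkk3 moved past 1.5-fold, with 88.6 CPM in the Fgd5-ko-labelled library and 41.1 CPM in the WT-labelled library, log2 1.11 (0.99 to 1.23). Sfrp2 stayed lower, with 10.5 CPM (8.87 to 12.3) in the Fgd5-ko-labelled library and 17.7 CPM (16.2 to 19.4) in the WT-labelled library, log2 -0.76. In this range 4 of 5 members were past 1.5-fold, against 34.4% of 13141 genes, with 24.1% higher and 10.3% lower. Depth and library cannot be told apart by either comparison, since the range takes the shallow cells of one library and typical cells of the other. Basal-like barcodes outside the authors' table (410 and 177 cells) were deeper, with medians of 40573 and 16874 UMIs. Sfrp2 was higher there in the Fgd5-ko-labelled library, at 9.89 CPM against 5.23 CPM (14 UMIs), log2 0.92 (0.13 to 1.83). The log2 ratios of Sfrp1, Wif1, Dkk3 and Sostdc1 there were -0.51, 0.49, 0.98 and 0.27.

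The share of basal-like cells with at least 1 UMI, after thinning every cell to 2000 UMIs, gave the same directions as the levels over all cells. Wif1 was found in 20.1% (19.1 to 21.2) of 5986 cells of the Fgd5-ko-labelled library and in 12.3% (11.5 to 13.1) of 6175 cells of the WT-labelled library. Sostdc1 was found in 18.8% and 14.3% of the same cells, and Dkk3 in 11.5% and 9.26%. Sfrp1 was found in 5.25% (4.69 to 5.84) of cells of the Fgd5-ko-labelled library, against 11.3% (10.5 to 12.1) of those of the WT-labelled library, and Sfrp2 in 2.04% against 4.07%. Without thinning, all 5 shares were higher in the Fgd5-ko-labelled library, Sfrp1 included at 23.5% against 20.3%. Endothelial-like cells, thinned alike, held Wif1 in 0.318% and 0.266% of cells, Sostdc1 in 0.635% and 0.531%, Dkk3 in 0.318% and 0.177%, Sfrp1 in 1.27% and 2.04%, and Sfrp2 in 0 of 315 and 0.443%. Basal-like shares were therefore above this background in both libraries.

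Basal-like cells formed 9 states when clustered again without the 8 genes, and nearly every state belonged to 1 library. Among these states, the one richest in Lgr5 in each library had the most Sfrp1, and less Sostdc1 than the one poorest in Lgr5. In the Fgd5-ko-labelled library, state 5 (865 cells, with Ankrd1, Slpi and Nupr1 among its leading genes) had 131 CPM of Lgr5 and 82.3 CPM (76.7 to 88.2) of Sfrp1, while its other states had 13.8 to 19.1 CPM of Sfrp1. State 5 also had the highest Dkk3 of all states, 120 CPM (113 to 127), and the lowest Sostdc1, 42.1 CPM (38.1 to 46.3). State 3 of that library (1023 cells), with 17.0 CPM of Lgr5, had the highest Sostdc1, 226 CPM (219 to 232), and the lowest Sfrp1, 13.8 CPM (12.2 to 15.5). Its state 2 (2687 cells) came next to state 5 in Lgr5, at 59.6 CPM, but had only 19.1 CPM of Sfrp1 and 130 CPM of Sostdc1.

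In the WT-labelled library, state 7 (615 cells) was richest in Lgr5, at 96.7 CPM (84.7 to 110). It had 88.4 CPM of Sfrp1 (76.9 to 101) and 90.9 CPM of Sostdc1 (79.3 to 104). State 8 (82 cells) was poorest in Lgr5 there, at 6.42 CPM on 5 UMIs. State 1 (4540 cells) had 84.3 CPM of Lgr5 (80.6 to 88.1), 75.9 CPM of Sfrp1 (72.4 to 79.5) and 73.0 CPM of Sostdc1 (69.6 to 76.6). The Lgr5 and Sfrp1 intervals of states 7 and 1 overlapped. State 4 of the WT-labelled library (994 cells, led by Lamp5) had 9.11 CPM of Lgr5, 7.06 CPM of Sfrp1 (5.32 to 9.19) and 202 CPM of Sostdc1 (192 to 212). Sfrp2 and Dkk3 sided with Sfrp1 there: Sfrp2 had 24.3 CPM in state 1 and 5.26 CPM in state 4, and Dkk3 had 52.1 and 18.2 CPM. In the cycling state 8, led by Cenpf and Ube2c, Sfrp1 had 15.7 CPM (327 cells) in the Fgd5-ko-labelled library and 6.42 CPM (82 cells, 5 UMIs) in the WT-labelled library. Sostdc1 in state 8 had 165 and 168 CPM, with overlapping counting intervals. States differed in depth too, with a median of 10104 UMIs in state 5 against 18472 in state 3, and 4752 in state 1 against 7334 in state 4, and the part of depth in these levels was not tested. Finer clustering (resolution 1) did not keep the pairing of most Lgr5 with most Sfrp1 in the WT-labelled library. Its 213 cells with most Lgr5, 136 CPM (111 to 164), had 69.2 CPM of Sfrp1. Another 1654 cells, with 127 CPM of Lgr5 (119 to 135), had 152 CPM of Sfrp1.

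**Figure D4:**
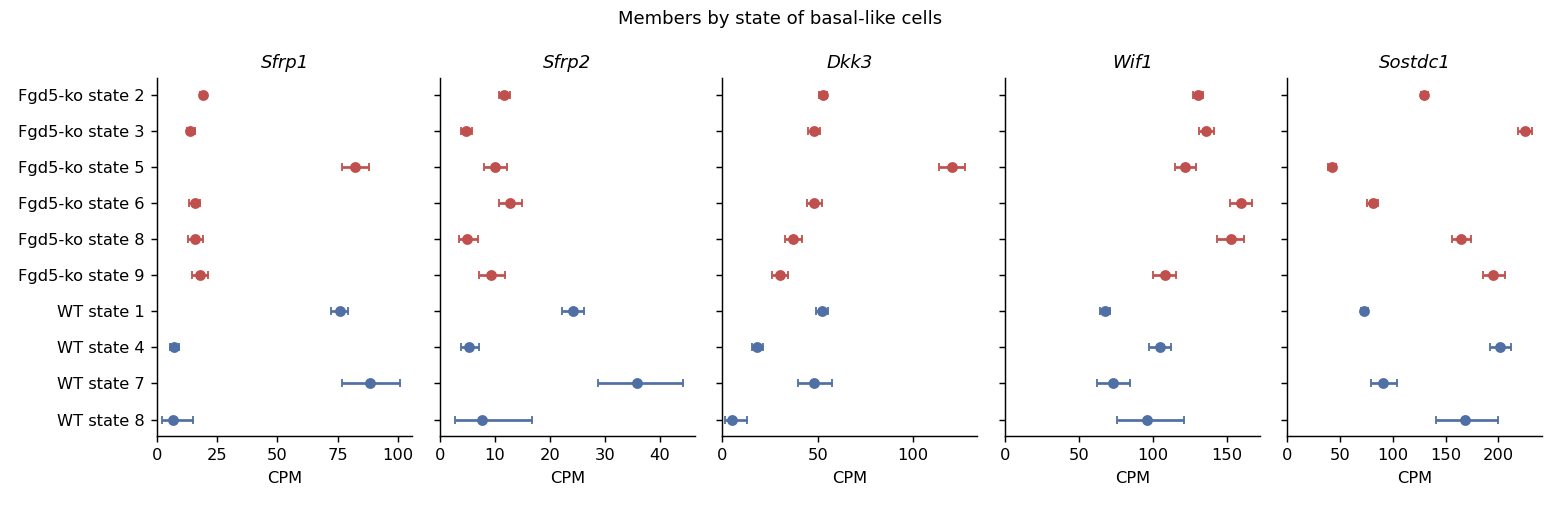
CPM of 5 members (panels) in the states of basal-like cells, split by library, for states with at least 50 cells of the library; points are levels and whiskers exact 95% counting intervals. State 5 of the Fgd5-ko-labelled library and states 1 and 7 of the WT-labelled library have the highest Sfrp1 and the lowest Sostdc1 of their library, and Wif1 has the smallest spread.

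Among the 9 states Wif1 had the smallest spread, with its highest level 1.48 times its lowest in the Fgd5-ko-labelled library (160 CPM in state 6 and 108 CPM in state 9) and 1.55 times in the WT-labelled library (105 CPM in state 4 and 67.7 CPM in state 1). The same ratio was 5.98 and 13.8 for Sfrp1, 5.36 and 2.76 for Sostdc1, 3.98 and 10.2 for Dkk3 and 2.63 and 6.83 for Sfrp2. Finer clustering (resolution 1) spread Wif1 further, 4.36 times in the Fgd5-ko-labelled library and 2.64 times in the WT-labelled library. Wif1 then no longer had the smallest spread in the Fgd5-ko-labelled library, where Sfrp2 had 3.18 and Dkk3 3.92 times, but still had it in the WT-labelled library. Of these finer states, 907 cells of the Fgd5-ko-labelled library had 257 CPM (249 to 264), 1207 had 77.8 CPM (74.0 to 81.7) and another 440 had 58.8 CPM (53.7 to 64.3). In the WT-labelled library the finer states ran between 45.1 and 119 CPM of Wif1. In the centred clustering Wif1 had 89.0, 94.7, 136, 83.1 and 148 CPM in Fgd5-ko-labelled cells of states 1, 2, 3, 8 and 9. WT-labelled cells of these states had 78.2, 58.1, 71.4, 72.7 and 86.45 CPM, and the counting intervals overlapped in states 1 and 8.

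Detection in the same cells was compared next. Among states, Sfrp2 followed Sfrp1 in the WT-labelled library but not in the Fgd5-ko-labelled library, where state 5 had 9.98 CPM of Sfrp2, below the 11.7 CPM of state 2 and the 12.7 CPM of state 6. After thinning, cells of the Fgd5-ko-labelled library with a Sfrp1 UMI had Sostdc1 in 10.5% (7.35 to 14.4), against 19.3% (18.3 to 20.3) of cells without one. In the WT-labelled library these shares were 6.61% (4.88 to 8.72) and 15.2% (14.3 to 16.2). Sfrp2 was more frequent in cells with a Sfrp1 UMI, at 4.78% against 1.89% in the Fgd5-ko-labelled library and 9.20% against 3.41% in the WT-labelled library. Dkk3 was too, at 19.8% against 11.1% in the Fgd5-ko-labelled library and 15.1% against 8.52% in the WT-labelled library. Wif1 was found in 20.1% of cells with and 20.1% without a Sfrp1 UMI in the Fgd5-ko-labelled library, and in 12.6% and 12.3% in the WT-labelled library. Cells of 1 library are not replicates, so these are descriptions.

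A small cluster of listed keratin-positive cells, led by Ly6d, Fgfbp1 and Plet1, was left unnamed because Acta2 and Oxtr were low. It had more Sfrp1 and less Wif1, Dkk3 and Sostdc1 than basal-like cells of the same library. Sfrp1 had 96.6 CPM (75.6 to 122) in 43 cells of the Fgd5-ko-labelled library and 84.9 CPM (68.2 to 105) in 124 cells of the WT-labelled library. Basal-like cells had 23.3 and 59.9 CPM of Sfrp1. Wif1 had 42.9 CPM (29.4 to 60.6) and 21.0 CPM (13.2 to 31.8) in the same cells, below the 134 and 77.0 CPM of basal-like cells. Sostdc1 had 67.1 and 64.9 CPM, below 141 and 105 CPM, and Dkk3 had 32.2 and 28.6 CPM, below 55.1 and 43.1 CPM.

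Fibroblast-like cells, found among barcodes outside the authors' table (480 cells in the Fgd5-ko-labelled library and 919 in the WT-labelled library), had most of the Sfrp2, Sfrp4 and Dkk2. Sfrp2 had 334 CPM (320 to 349) in the Fgd5-ko-labelled library and 503.7 CPM (486 to 522) in the WT-labelled library. The 5 cells with most Sfrp2 held 470 of its 1974 UMIs in the Fgd5-ko-labelled library and 358 of 2954 in the WT-labelled library. Sfrp4 had 171 CPM (161 to 182) in the Fgd5-ko-labelled library and 223 CPM (211 to 235) in the WT-labelled library. Dkk2 had 32.0 CPM (27.6 to 36.9) in the Fgd5-ko-labelled library and 48.1 CPM (42.6 to 54.0) in the WT-labelled library. Sfrp1 ran the other way, with 138 CPM (128 to 147) in the Fgd5-ko-labelled library, against 37.9 CPM (33.04 to 43.2) in the WT-labelled library, a log2 ratio of 1.86 (1.65 to 2.08). Dkk3 also did, with 24.5 CPM (20.7 to 28.9) in the Fgd5-ko-labelled library and 8.02 CPM (5.89 to 10.7) in the WT-labelled library.

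Of the 6 members with at least 20 UMIs in fibroblast-like cells, 3 (Sfrp1, Dkk3 and Wif1) were at least 1.5-fold higher in the Fgd5-ko-labelled library and 2 (Sfrp2 and Dkk2) were lower by just over that threshold (log2 -0.593 and -0.588), with Sfrp4 at -0.382. In fibroblast-like cells of 4000 to 12000 UMIs Dkk2 was at -1.24, Sfrp4 at -0.96 and Sfrp2 at -0.69. The share over all genes was not computed in that range. Over 11536 genes in fibroblast-like cells of any depth, 16.5% were higher, 14.1% lower and 30.7% either. The size of the Wif1 ratio leaned on 1 cell. Of 83 Wif1 UMIs in the Fgd5-ko-labelled library, 61 were in a cell of 26721 UMIs. That cell held 168 Lum and 142 Col1a2 UMIs and 1 of Krt14. Without that cell Wif1 had 3.74 CPM (2.34 to 5.66) in the Fgd5-ko-labelled library, against 0.341 CPM (2 UMIs) in the WT-labelled library. The log2 ratio was then 3.46 (1.43 to 6.59), still past 1.5-fold but resting on few UMIs. Stray basal RNA, scaled by Krt5, Krt14 and Krt17, would give 2.13 CPM of Wif1 in the Fgd5-ko-labelled library and 0.632 CPM in the WT-labelled library.

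The fibroblast-like clusters differed in the inhibitors they held and in their share of each library. Cluster 1, led by Mmp3, Lum and Crabp1 (186 cells in the Fgd5-ko-labelled library and 220 in the WT-labelled library), had high Sfrp1 and Sfrp2, 193 CPM (179 to 208) and 593 CPM (569 to 618), but little Sfrp4, 44.0 CPM, and Dkk2, 14.2 CPM, over both libraries. Cluster 2 (1 and 372 cells) and cluster 7 (207 and 11 cells) both held Pi16 among their leading genes. They had more Sfrp4 than cluster 1, 248 and 259 CPM, more Dkk2, 42.4 and 45.8 CPM, and less Sfrp1, only 3.47 and 19.1 CPM. Cluster 4, led by Smpd3, Myoc and Cxcl13 (17 and 258 cells), had the most Sfrp4, 317 CPM (291 to 344), and Dkk2, 79.5 CPM (66.7 to 94.0), of the fibroblast-like clusters. Cluster 17, led by Inmt, Cxcl13 and Smoc2 (69 and 58 cells), had the most Sfrp2, 823 CPM (763 to 887), with 180 CPM of Sfrp1 and 256 CPM of Sfrp4. Since clusters 2 and 4 were nearly all WT-labelled cells and cluster 7 came mostly from the Fgd5-ko-labelled library, the ratios of the whole class mix composition with level. Within cluster 1, which holds many cells of both libraries, Sfrp1 had 252 CPM in the Fgd5-ko-labelled library and 98.2 CPM in the WT-labelled library, and Sfrp2 had 451 and 822 CPM. Within cluster 17 Sfrp1 had 184 CPM and 170 CPM, and Sfrp2 had 618 and 1333 CPM.

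**Figure D5:**
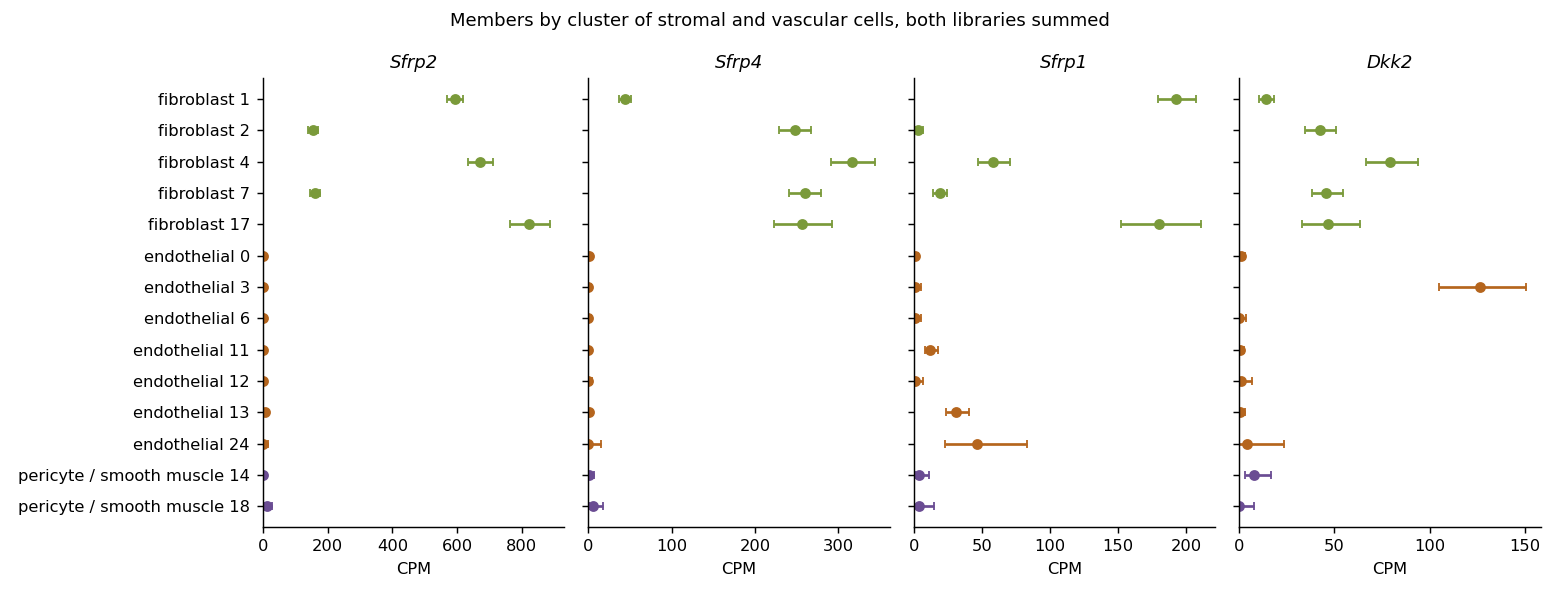
CPM of Sfrp2, Sfrp4, Sfrp1 and Dkk2 in each fibroblast-like, endothelial-like and pericyte or smooth muscle-like cluster, both libraries summed, with exact 95% counting intervals. Fibroblast clusters 1 and 17 are high in Sfrp1, clusters 2, 4, 7 and 17 in Sfrp4, and among endothelial clusters cluster 3 alone stands out for Dkk2.

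Endothelial-like cells (330 in the Fgd5-ko-labelled library and 1403 in the WT-labelled library) held nearly all their Dkk2 in 1 cluster. Cluster 3, led by Cytl1, Gkn3, Stmn2 and Sema3g, with the arterial gene Gja4 among its leading genes, had 66.6 CPM of Dkk2 in 29 cells of the Fgd5-ko-labelled library and 140 CPM in 309 cells of the WT-labelled library, 126 CPM (105 to 151) together. The other 6 endothelial-like clusters had between 0 and 4.23 CPM. Over the class Dkk2 had 3.61 CPM (1.92 to 6.17) in the Fgd5-ko-labelled library and 19.9 CPM (16.5 to 23.9) in the WT-labelled library, log2 -2.47, or -0.83 in cells of 4000 to 12000 UMIs. The Sfrp1 log2 ratio of the class was -1.15, or -2.16 in that range. Sfrp1 was found in the clusters with lymphatic genes: cluster 13, with Lyve1 and Prox1, had 31.2 CPM (23.7 to 40.4), and cluster 24, with Mmrn1, Lyve1 and Prox1, had 46.5 CPM (23.2 to 83.2), against 12.2 CPM or less in the others. Of 4 members with 20 UMIs in the class, 1 (Wif1) was at least 1.5-fold higher and 2 (Sfrp1 and Dkk2) were at least 1.5-fold lower, although the Wif1 interval spanned 0 (log2 0.88, -0.25 to 2.03), beside 22.0% higher, 10.2% lower and 32.2% either of 11454 genes. Wif1 there, 4.44 CPM in the Fgd5-ko-labelled library and 2.41 CPM in the WT-labelled library, was near the 5.98 and 2.47 CPM that stray basal RNA would give, and so was Sostdc1, at 5.27 and 3.61 CPM against 6.30 and 3.38 CPM.

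Schwann-like cells, the glia of peripheral nerves (23 cells in the Fgd5-ko-labelled library and 53 in the WT-labelled library), had the highest Sostdc1 of all classes. It had 952 CPM (734 to 1216) in the Fgd5-ko-labelled library and 1337 CPM (1133 to 1569) in the WT-labelled library. They had the highest class level of Sfrp1 too, 238 CPM (136 to 387) in the Fgd5-ko-labelled library and 257 CPM (172 to 369) in the WT-labelled library, on 16 and 29 UMIs. In the Fgd5-ko-labelled library 6 cells held these UMIs, and the interval overlapped that of fibroblast-like cells (128 to 147). Frzb gave 1 UMI in Schwann-like cells. An unnamed cluster of 29 cells led by Sfrp5, another frizzled-related inhibitor, and by Igfbp6 and Cldn1 had 2870 CPM (2653 to 3100) of Sfrp5, 276 CPM of Sostdc1 and 209 CPM of Sfrp1. Sfrp5 is named after its value was seen.

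Luminal progenitor and alveolar-like cells had 31.5 CPM of Sostdc1 in 23 cells of the Fgd5-ko-labelled library and 40.6 CPM (29.1 to 55.1) in 147 cells of the WT-labelled library, above the 15.5 and 12.6 CPM that stray basal RNA would give. Sfrp2 had 19.3 CPM (11 UMIs) and 38.6 CPM (39 UMIs), also above the 1.06 and 2.44 CPM of stray basal RNA and the 0.123 and 6.75 CPM of stray fibroblast RNA. Wif1 had 57.8 CPM (39.8 to 81.2) in the Fgd5-ko-labelled library, on 33 UMIs in 7 of the 23 cells, against 7.92 CPM in the WT-labelled library. Stray basal RNA would give 14.7 and 9.21 CPM of Wif1, so its level in the WT-labelled library was not above background. In 113 hormone-sensing luminal-like cells of the WT-labelled library no member passed 6.66 CPM. Doublets were not removed, and their part in these levels was not tested.

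The genes whose levels followed each member most closely over 13 combinations of class and library, each of at least 50 cells, are given as descriptions. Sfrp4 was followed by Lsp1 (r = 0.98), Scara5 and Ssc5d, Sfrp2 by Steap3 (r = 0.96), Pamr1 and Dapk1, and Dkk2 by Gdf10 (r = 0.97), Phf11b and Calml4. Wif1 was followed by Pappa (r = 0.97), Lama1, a laminin chain of basement membrane, and Kctd4. Sostdc1 was followed by Cadm1 (r = 0.99), Ccdc13 and Plekhb1, Dkk3 by Kcnip3 (r = 0.95), Rai2 and Plekhh2, and Sfrp1 by Gpr135 (r = 0.93), Rarres1 and Kif1a. For Frzb, with 7 UMIs, the match to Vat1l, Gpr37l1 and Gm26683 rests mainly on 1 UMI in Schwann-like cells. Among the members the closest pairs were Sfrp2 with Sfrp4 (r = 0.87) and Wif1 with Dkk3 (r = 0.84), and the most opposed was Dkk2 with Sostdc1 (r = -0.75). The 13 points share libraries and differ in depth. Basal-like cells in and outside the authors' table count as separate points. Schwann-like cells, which had the highest Sostdc1, enter only by the 53 cells of the WT-labelled library.

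The rest of the Wnt pathway was read from 7 gene lists in basal-like cells. Of 15 other secreted or surface antagonists, 7 had at least 20 UMIs, 3 were at least 1.5-fold higher and 2 lower in the Fgd5-ko-labelled library, beside 27.2% higher and 10.1% lower over all genes, with a median log2 ratio of 0.30 beside 0.24 for all genes. Igfbp4, which can bind LRP6 and Frizzled, had 40.9 CPM in the Fgd5-ko-labelled library and 87.8 CPM in the WT-labelled library, log2 -1.10, and stayed lower in cells of 4000 to 12000 UMIs at log2 -1.86. Tpbg, a membrane protein that restrains Wnt signalling, had 21.1 and 44.5 CPM, log2 -1.08 (-0.77 in that range). Kremen1, a Dickkopf receptor, had 19.2 and 15.6 CPM, and Shisa2, which retains Frizzled in the cell, had 7.11 and 7.76 CPM. Their log2 ratios were 0.30 and -0.13, and changed direction in that range, to -0.13 and 0.24.

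Of 19 Wnt ligands, 10 had at least 20 UMIs, with 4 higher and 3 lower, beside 27.2% higher and 10.1% lower over all genes, and a median log2 ratio of 0.13. Wnt10a had 62.9 CPM in the Fgd5-ko-labelled library and 21.4 CPM in the WT-labelled library, log2 1.55 (1.44 to 1.67), and stayed higher in cells of 4000 to 12000 UMIs at log2 1.22. Wnt6 had 60.2 and 33.3 CPM, log2 0.85, but was lower in that range at log2 -0.62. Wnt5a, a ligand best known for beta-catenin-independent signals, had 23.2 and 51.8 CPM, log2 -1.16 (-0.92 in that range), and Wnt11 had 21.4 and 33.7 CPM, log2 -0.66 (-0.24).

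The 17 receptors and coreceptors all had 20 UMIs and 15 lay within 1.5-fold, 1 higher and 1 lower, beside 27.2% higher and 10.1% lower over all genes, with a median log2 ratio of 0.01. Ptk7, a pseudokinase coreceptor, was lower, with 46.3 CPM in the Fgd5-ko-labelled library and 85.0 CPM in the WT-labelled library, log2 -0.88, while Fzd1, Fzd3 and Fzd5 had log2 ratios of 0.43, -0.41 and -0.39, and of 0.65, -0.34 and 0.06 in cells of 4000 to 12000 UMIs. Of 9 genes of the R-spondin axis, 6 had 20 UMIs, 5 of them within 1.5-fold and 1 higher, beside 27.2% higher and 10.1% lower over all genes, and a median log2 ratio of 0.13. Lgr5 had 51.7 CPM and 66.5 CPM, log2 -0.36, but 92.8 and 60.3 CPM in cells of 4000 to 12000 UMIs, log2 0.62. Lgr4 and Lgr6, its relatives, had log2 ratios of -0.13 and 0.18, and Znrf3, a ligase that removes Frizzled, had 0.43, against 0.23, 0.09 and -0.003 in that range.

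Of 20 cytoplasmic and nuclear components, 3 were higher and 2 lower, with 15 within 1.5-fold, beside 27.2% higher and 10.1% lower over all genes, and a median log2 ratio of 0.19. Apc (log2 0.83), Tle1 (0.92), a corepressor, and Porcn (0.99), which lipidates Wnt ligands, were higher, and Tle4, another corepressor, was lower (-1.08). Of 17 Wnt target genes, some also in the R-spondin list, 15 had 20 UMIs, with 3 higher, 1 lower and a median log2 ratio of 0.33, beside 27.2% higher and 10.1% lower over all genes. Ccnd1, encoding cyclin D1, had 68.5 CPM in the Fgd5-ko-labelled library and 9.90 CPM in the WT-labelled library, log2 2.79, and 1.40 in cells of 4000 to 12000 UMIs. Cd44, Nkd2 and Fosl1 had log2 ratios of 0.82, 0.58 and 0.56, and of 0.56, -0.13 and 0.74 in that range, where Nkd2 changed direction. Of 22 genes of BMP signalling, which Sostdc1 also inhibits, 18 had 20 UMIs, with 6 higher and 4 lower, beside 27.2% higher and 10.1% lower over all genes, and a median log2 ratio of 0.22. The BMP targets Id3 and Id1 had 195 and 20.4 CPM in the Fgd5-ko-labelled library against 490 and 45.1 CPM in the WT-labelled library, log2 -1.33 and -1.15. In cells of 4000 to 12000 UMIs these ratios were 0.10 and 0.33, so neither was past 1.5-fold and both had changed direction. Fst, encoding follistatin, and Id4 were at log2 0.60 and 0.70 over all cells and at 0.37 and 0.26 in that range, no longer past 1.5-fold.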

How the data were processed

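The authors deposited UMI counts per gene and barcode for each library, not normalized, and per the file headers the software version was 3.1.0. Cell Ranger, Seurat 3.0 and the build mm9 appear, with no role, per the submitters' processing notes; the sources used here give no annotation. The authors' deposited table of barcodes also holds t-SNE coordinates, a score without unit that was not used. Its 6064 barcodes with suffix 2 all occur in the Fgd5-ko-labelled library and its 6588 with suffix 1 in the WT-labelled library.

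The members and lists were chosen with earlier results of these data known. Listed cells, and barcodes outside the table passing 3 limits (1000 UMIs, 500 genes, no more than 15% of UMIs mitochondrially encoded), were clustered apart (scanpy 1.11.5, leidenalg 0.10.2; 2000 variable genes without the members, 30 components, 15 neighbours, resolution 1; basal states 0.5; no batch correction). Clusters were named X-like from 12 marker lists, less the erythroid list, by a rule set after the data were seen: a log2 margin of 1, at least 3 markers in 10% of cells, and no mixture with basal markers. A cluster also stayed unnamed if another list held more of its leading genes. The same held for shallow clusters led by none of their list's markers, and for basal clusters low in Acta2 and Oxtr. Of listed cells, 0.923% (Fgd5-ko) and 2.75% (WT) stayed unnamed. No doublets were removed, and mixed clusters stayed unnamed. An alternative clustering of basal-like cells at resolution 0.5 centred each gene within its library.

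UMIs were summed per class and library and divided by the total (CPM). Intervals are exact Poisson (levels), conditional binomial (ratios) and Clopper-Pearson (shares). No test or p-value was computed. The ratio code was checked on simulated counts. Genes named beside the members are Fgd5, the 3 of highest correlation with each member, and the 4 of largest absolute ratio per list at a mean of 5 CPM; genes leading clusters, stray-RNA genes and Gja4 were named after their values were seen. Promoters of 4 of the 8 members were in the RefSeq table. TMM factors came from edgeR 4.0.16.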

Additional observations from a re-analysis of the deposited data

Results flagged for a closer look

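Sfrp1 differed in direction between cell classes. Its log2 ratio (Fgd5-ko over WT) was 1.86 (1.65 to 2.08) in fibroblast-like cells and -1.36 (-1.45 to -1.27) in basal-like cells. With 1 library per group the difference was not tested. In cells of 4000 to 12000 UMIs the ratios were 2.20 and 0.11. Within fibroblast-like cluster 1 the Sfrp1 levels were 252 CPM in 186 cells of the Fgd5-ko-labelled library and 98.2 CPM in 220 cells of the WT-labelled library, and within cluster 17 they were 184 CPM in 69 cells and 170 CPM in 58 cells.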

How the results depend on the processing

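No paired analysis was possible because each group has 1 library. In basal-like cells, 3 of 5 members were past 1.5-fold, and 3 or 4 under every alternative tried. TMM factors shifted all log2 ratios by -0.18 and median-of-ratios scaling by -0.19, with no change of direction for a member there. In cells of 4000 to 12000 UMIs Sfrp1 turned to 0.11 from a called lower value; the cause was not tested. Sostdc1 turned to -0.84 there, from 0.42 within 1.5-fold. In endothelial-like cells at resolution 2 Wif1 turned to -0.28 from 0.88 and Sostdc1 to -0.35 from 0.55. Without thinning, 5 of 5 members, rather than 3, had a higher share in the Fgd5-ko-labelled library, which has the deeper cells. At 2-fold, 21 of 90 Wnt pathway genes were called, against 34 of 90 at 1.5-fold and 26 of 83 in cells of 4000 to 12000 UMIs. Over all genes, 5586 of 14984 (37.3%) were past 1.5-fold, 10088 with no minimum of UMIs (more genes tested, many with few counts) and 2620 past 2-fold. Leaving out the fibroblast-like cell with most Wif1 UMIs, an alternative added after the data were seen, moved the Wif1 log2 ratio to 3.46 from 5.36. Of 71 values of single members under alternatives, 4 changed sign: the Sfrp1, Sostdc1 and Wif1 values above, 2 of them not past 1.5-fold to begin with. Members with under 20 UMIs in a class (Sfrp4, Frzb and Dkk2 in basal-like cells) were too few to compare.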
